A study of Mus musculus and Mus musculus
Oryx dammah with 30 samples.

Results

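The genes described are 32 transcripts of the p53 network: p53 itself (Trp53) and 31 genes that p53 is known to regulate or that regulate p53 in return. They were chosen by gene symbol, and each of the 32 was found once among the 53023 genes of the four-cell table, the 55364 genes of the two-cell table and the 53023 genes of the DNA replication table. They fall into 6 genes of feedback and p53 itself (Trp53, Mdm2, Mdm4, Ccng1, Rps27l, Zmat3), 9 genes of arrest and growth or stress control (Cdkn1a, Btg2, Plk2, Plk3, Sesn1, Sesn2, Gdf15, Ddit4, Ckap2), 12 genes of apoptosis (Bax, Bbc3, Pmaip1, Perp, Fas, Tnfrsf10b, Eda2r, Apaf1, Aen, Ei24, Trp53inp1, Phlda3) and 5 genes of DNA repair (Rrm2b, Ddb2, Xpc, Polk, Ercc5).

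The study placed C2C12 nuclei into mouse embryos and asked, by RNA-seq of pooled embryos, which transcripts depend on new transcription after nuclear transfer (NT). In every group the embryos were BDF1 (C57BL/6 × DBA/2), and each received 2 donor cells of C2C12, a myoblast line from C3H mice, in the presence of 0.1 μg/ml demecolcine, a drug that depolymerizes microtubules. Four-cell NT embryos were made at 46 hours post insemination (hpi) and collected at 70 hpi, with α-amanitin, a toxin that blocks RNA polymerase II, in 3 libraries (S16, S18, S8) and without it in 3 (S15, S17, S7), each a pool of 3 embryos. Two-cell NT embryos were made at 21 hpi and collected at 45 hpi, or made at 30 hpi and collected at 54 hpi, with 6 libraries without α-amanitin (NT1 to NT3, R1 to R3) and 6 with it (Am1 to Am3, RAm1 to RAm3), each a pool of 5 embryos. The names of these libraries do not say which were early and which late, so the early and late embryos were compared together, and the columns NT and Am, and R and RAm, were also compared as separate sets. The DNA replication experiment held 3 DR and 3 D libraries of four-cell NT embryos without α-amanitin, each a pool of 4 embryos, from 2 times of transfer, and the labels do not say which letters stand for which time. The donor is 1 cell line. Whole donor cells were fused, so the libraries hold RNA of the embryo and of the donor cells together. The study describes its biological replicates as independent, with no day or batch given for each pool, so p-values measure the spread between these pools.

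p53 is a transcription factor that is kept low by Mdm2, a ubiquitin ligase that marks it for degradation, and by Mdm4, a relative of Mdm2 that binds its activation domain. DNA damage and other stresses release p53, which then switches on genes that stop the cell cycle, repair DNA or lead to cell death, and also Mdm2 itself, which closes a negative feedback loop. Early mouse embryos carry p53 network transcripts laid down in the oocyte beside those made after the embryonic genome becomes active. Block of transcription by α-amanitin lowers a level that needs new RNA, while RNA already present, of the oocyte or of the donor cells, can remain. This separation is not complete here. The genes used to check the block, given below, overlapped between NT and Am, and the values are relative.

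p53 binds a response element of 2 half-sites of 10 bases each. The 250 bases upstream of the start site are shown for 3 of the members whose level moved with α-amanitin in four-cell embryos, because each holds at least 1 half-site. They are RefSeq sequences of GRCm38.p6, printed 5′ to 3′ on the strand of the gene up to the annotated start or exon. Capitals mark half-sites, counted only as exact matches to RRRCWWGYYY (R is A or G, W is A or T, Y is C or T). Stretches close to this pattern, such as the bases right after the second run of Cdkn1a, were not marked or counted.
Cdkn1a, plus strand, chr17:29090729-29090975: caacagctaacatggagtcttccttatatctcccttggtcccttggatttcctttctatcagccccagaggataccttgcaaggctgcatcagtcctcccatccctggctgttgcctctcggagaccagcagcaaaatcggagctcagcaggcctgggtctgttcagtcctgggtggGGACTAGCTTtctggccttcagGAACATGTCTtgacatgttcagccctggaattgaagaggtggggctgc
Mdm2, minus strand, chr10:117710759-117711008: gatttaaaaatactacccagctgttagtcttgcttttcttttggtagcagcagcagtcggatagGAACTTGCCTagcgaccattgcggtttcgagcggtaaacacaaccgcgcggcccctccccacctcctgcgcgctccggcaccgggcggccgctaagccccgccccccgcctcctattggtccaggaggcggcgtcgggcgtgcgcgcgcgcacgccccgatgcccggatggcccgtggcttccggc
Ccng1, minus strand, chr11:40755312-40755536: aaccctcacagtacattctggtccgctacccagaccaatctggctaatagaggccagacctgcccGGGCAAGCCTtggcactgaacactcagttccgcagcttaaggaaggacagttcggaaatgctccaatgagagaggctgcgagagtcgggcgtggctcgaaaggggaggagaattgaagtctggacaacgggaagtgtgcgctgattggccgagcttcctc
The 2 capital runs of Cdkn1a lay 73 to 64 and 51 to 42 bases before the start at position 29090979, with 12 bases between them. A second annotated start of Cdkn1a lies at 29093769, which is 2790 bases downstream, and before it the half-sites stand 2863 and 2841 bases away. The run in Mdm2 lay 186 to 177 bases before its start, and that in Ccng1 185 to 176. Of 32851 annotated start sites of all genes, 7.13% held a half-site in this window, and 0.0639% held 2 half-sites at most 13 bases apart. RefSeq start sites were matched for 24 of the 32 members, with 33 start sites, of which 11 (33.3%), each of another member, held a half-site. Of the 13 members called in four-cell embryos 11 had a start site and 5 of those a half-site (Ccng1, Cdkn1a, Ckap2, Mdm2, Polk), and of the members tested but not called 10 had a start site and 6 a half-site (Aen, Bax, Ei24, Rps27l, Sesn1, Trp53). A match is a description of the letters and was not tested as a site of binding.

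Values are FPKM (fragments per kilobase of gene, scaled to the total of counted reads), as the authors deposited them. They are relative values that do not show a shift shared by every gene. In pooled embryos fewer cells and less RNA per cell cannot be told apart. Counted reads came to 1829781 to 2278397 per library without and 1136771 to 3101002 with α-amanitin at the four-cell stage, 7584116 to 10503779 and 4712268 to 9448316 at the two-cell stage, 2603946 to 4252278 for DR and 6059974 to 19181387 for D. Spike-in RNA took 2.38% to 6.26% of the two-cell reads without α-amanitin and 6.54% to 11.3% with it. All 10 oocyte and early embryo markers were detected in each group, and their summed level moved with the groups. It was 8729 to 9927 FPKM in the four-cell libraries without and 12200 to 16120 FPKM with α-amanitin, 7413 to 9103 FPKM in R and 1580 to 3365 FPKM in RAm, 8482 to 12350 FPKM in NT and 6937 to 8061 FPKM in Am, and 3387 to 4044 FPKM in DR, under all 3 D libraries (up to 5737 FPKM). The 3 RAm libraries stood apart from the other 9 two-cell libraries across all genes, at Pearson correlations of 0.675 to 0.813 with them, against 0.902 to 0.974 among the other 9 and 0.91 to 0.92 within RAm. The pooled two-cell and the R against RAm results rest on them, and the values between NT and Am do not use them. The 12 myoblast markers summed to 20.4 to 93.1 FPKM in the four-cell libraries without and 88.3 to 294.5 FPKM with α-amanitin, with 5 and 2 of them at 0 throughout. Their sums were 18.9 to 478.4 and 41.1 to 93.5 FPKM in the two-cell libraries, with the highest value in NT3. Early embryonic transcripts of the Zscan4, Usp17l and Tcstv families, 8 genes used to check the block, were listed at 0 in every four-cell library with α-amanitin and summed to 14.5 to 37.7 FPKM without it. At the two-cell stage they summed to 443.3 to 616.6 FPKM in R and 15.2 to 44.1 FPKM in RAm, which did not overlap, and to 35.6 to 111.4 FPKM in NT and 26.1 to 36.1 FPKM in Am, which did. In the replication table they summed to 2953 FPKM in D1, 148 FPKM in D4 and 4.22 FPKM in D5, and to 11.5, 134 and 17.2 FPKM in DR1 to DR3, so D1 stood far above the rest. The part of these values in the results was not tested.

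To ask which p53 network transcripts depended on transcription at the four-cell stage, libraries without α-amanitin were compared with libraries with it. 13 of the 27 members tested were higher without α-amanitin and 0 were lower, at an adjusted p under 0.05 in limma on log2(FPKM + 1). Of all 9884 genes tested 11.1% were called higher and 1.13% lower. The median log2 difference was 2.03 over the 27 members, also with Plk2 and Phlda3 at their lower bounds of fold, and 0.37 over all genes. The members were chosen with earlier results of these data known, so this contrast describes the list and does not test it. Calls came from arrest (5 of 8 tested), apoptosis (4 of 10), feedback (2 of 5) and repair (2 of 4). A gene had to reach 1 FPKM in at least 3 libraries to be tested. 8 of the 27 stayed under 1 FPKM in all 3 libraries with α-amanitin, among them 7 of the 13 called, so these passed through the group where they were high. The groups did not overlap, with the libraries without α-amanitin higher, for 16 of the 27, against 27.6% of all genes tested.

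Among the arrest genes, Cdkn1a encodes p21, the inhibitor of cyclin-dependent kinases. Its level was 241 FPKM in S15, 99.3 in S17 and 239 in S7 without α-amanitin, and 13.6, 14.6 and 13.0 in S16, S18 and S8 with it. The lowest untreated library stood far above all treated ones, and a level of over 10 FPKM was left under the block. The log2 difference was 3.61 (SE 0.37, adjusted p = 0.0025). Plk2, a polo-like kinase of the stress response, was at 46.4, 16.6 and 37.9 FPKM without α-amanitin and at 0 in each of the 3 libraries with it. With 136 to 475 reads against 0, it was at least 82.4-fold higher when each treated library is set to a floor of 3 reads, which covers counting error only. The antiproliferative gene Btg2 had 16.5, 5.58 and 31.4 FPKM without and 0, 0.641 and 0.918 FPKM with α-amanitin (log2 difference 3.40, SE 0.61, adjusted p = 0.0139). Ddit4, whose product restrains the growth kinase complex mTORC1, had 3.25, 7.47 and 6.06 FPKM without and 0.184, 0.501 and 0 FPKM with α-amanitin (2.39, SE 0.42, adjusted p = 0.0131). Btg2 and Ddit4 were thus near the limit of detection under the block, in libraries that did not overlap with the untreated ones. Ckap2, a microtubule-associated protein of dividing cells, kept 19.5, 7.11 and 6.26 FPKM with α-amanitin beside 26.3, 39.3 and 50.2 FPKM without it, the smallest difference of the 13 called (1.85, SE 0.46, adjusted p = 0.0351). Sesn1, a sestrin that also acts on mTORC1, reached 3.84 to 12.1 FPKM without and 0.158 to 3.00 FPKM with α-amanitin, and it missed the threshold (2.03, adjusted p = 0.0558). Plk3 and Sesn2 overlapped between the groups and were not called, and Gdf15, a secreted stress cytokine, was too low to be tested.

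Among the apoptosis genes, Phlda3, which represses the survival kinase Akt, was at 35.5, 15.8 and 67.9 FPKM without α-amanitin and at 0 in each library with it. It was at least 33.8-fold higher, with 45 to 229 reads against the floor of 3 reads per library. Eda2r, a death receptor of the TNF receptor family, had 12.4, 11.3 and 20.5 FPKM without and 0.712, 0, and 0.214 FPKM with α-amanitin (log2 difference 3.58, SE 0.44, adjusted p = 0.00443). Both genes were close to or at 0 under the block and above 10 FPKM in each untreated library. Trp53inp1, a nuclear cofactor of p53, was at 31.4, 26.2 and 41.1 FPKM without and 8.12, 1.77 and 4.37 FPKM with α-amanitin (2.70, SE 0.47, adjusted p = 0.0124). Perp, a membrane protein of cell junctions that p53 uses in apoptosis, was at 10.3, 32.2 and 97.4 FPKM without and 2.64, 0 and 3.87 FPKM with α-amanitin (3.68, SE 0.84, adjusted p = 0.0269). The untreated Perp libraries spread more widely than those of Trp53inp1, and neither gene overlapped between groups. Of the genes of the mitochondrial route to apoptosis, Bax and Apaf1 overlapped between the groups and Pmaip1 and Bbc3 did not. Bax, the pore-forming protein, had 74.8 ± 27.2 FPKM (SD, n = 3) without and 80.0 ± 7.28 FPKM (SD, n = 3) with α-amanitin, and Apaf1, the scaffold of the apoptosome, had 1.33 to 4.41 FPKM without and 0.682 to 3.18 FPKM with it. The BH3-only gene Pmaip1 (Noxa) had 1.03 to 14.2 FPKM without and 0 to 0.333 FPKM with α-amanitin (2.21, adjusted p = 0.0642). Bbc3 (Puma), also BH3-only, was listed at 0 in each treated library and reached 0.620 to 2.18 FPKM without α-amanitin, too low to be tested. The TRAIL receptor Tnfrsf10b did not overlap between groups but missed the threshold (1.49, adjusted p = 0.104). Aen, a nuclease, and Ei24, a protein of the endoplasmic reticulum, overlapped, the latter with 16.9, 15.2 and 14.1 FPKM without and 14.97, 9.22 and 9.70 FPKM with α-amanitin. Fas, a death receptor, was above 1 FPKM in 1 library (12.3 in S7) and was not tested.

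In the feedback loop, Mdm2 and Ccng1 were called and p53 itself was not. Mdm2 had 63.7, 18.6 and 101 FPKM without and 7.42, 5.19 and 7.80 FPKM with α-amanitin (log2 difference 2.71, SE 0.56, adjusted p = 0.0205). Ccng1 encodes cyclin G1, which acts with a phosphatase on Mdm2, and had 75.4, 46.4 and 88.6 FPKM without and 0.643, 3.26 and 7.53 FPKM with α-amanitin (4.14, SE 0.58, adjusted p = 0.00709). Both were higher in each untreated library than in any treated one. Trp53 had 8.03, 4.86 and 28.7 FPKM without and 4.15, 7.39 and 4.20 FPKM with α-amanitin, groups that overlapped (0.94, SE 0.60, adjusted p = 0.34). Over the 11 alternatives its difference ran from 0.26 to 1.43, with no call. Mdm4 had 40.4, 22.97 and 15.7 FPKM without and 34.3, 24.0 and 34.7 FPKM with α-amanitin, and Rps27l, a ribosomal protein paralog, stayed between 941 and 1835 FPKM in all 6 libraries. These genes were at similar levels in both groups. Rps27l is a paralog of Rps27, and whether reads were split between them was not tested. Zmat3, a zinc finger RNA-binding protein, was under 1 FPKM in 5 of 6 libraries and was not tested.

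The repair genes divided. Polk, a DNA polymerase that copies past damage, had 5.85, 2.26 and 7.66 FPKM without and 0.523, 0 and 0.113 FPKM with α-amanitin (log2 difference 2.28, SE 0.47, adjusted p = 0.0197). Ercc5, the endonuclease XPG of nucleotide excision repair, had 6.14, 1.96 and 5.20 FPKM without and 0.055, 0 and 0 FPKM with α-amanitin (2.32, SE 0.43, adjusted p = 0.0144). Both were low genes that were almost undetected under the block. Rrm2b, the p53-inducible subunit of ribonucleotide reductase, was the 1 member whose groups did not overlap in the other direction, at 0.961, 0.957 and 0.607 FPKM without and 1.73, 2.99 and 1.52 FPKM with α-amanitin, and it was not called (−0.72, adjusted p = 0.24). Of all genes tested 7.56% were apart in that direction. The damage sensors were not called either: Ddb2 overlapped between groups, and Xpc stayed under 1 FPKM and was not tested.

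The calls differed in how far they rested on single libraries. Plk2, Cdkn1a, Phlda3, Eda2r and Ccng1 were called in each of the 11 alternatives run, and the other 8 lost their call in at least 1. Without S7, 8 of the 13 calls were lost (Mdm2, Btg2, Ddit4, Ckap2, Perp, Trp53inp1, Polk, Ercc5), and without S15 6, without S18 5, without S8 4 and without S17 2. With no filter on low values 6 were lost (Mdm2, Ddit4, Ckap2, Perp, Polk, Ercc5). The share of all genes called higher fell as well, from 11.1% to 2.63% without S7, 3.04% without S15 and 2.68% without S18. S17 was the lowest untreated library for 10 of the 13 called genes.

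**Figure D1:**
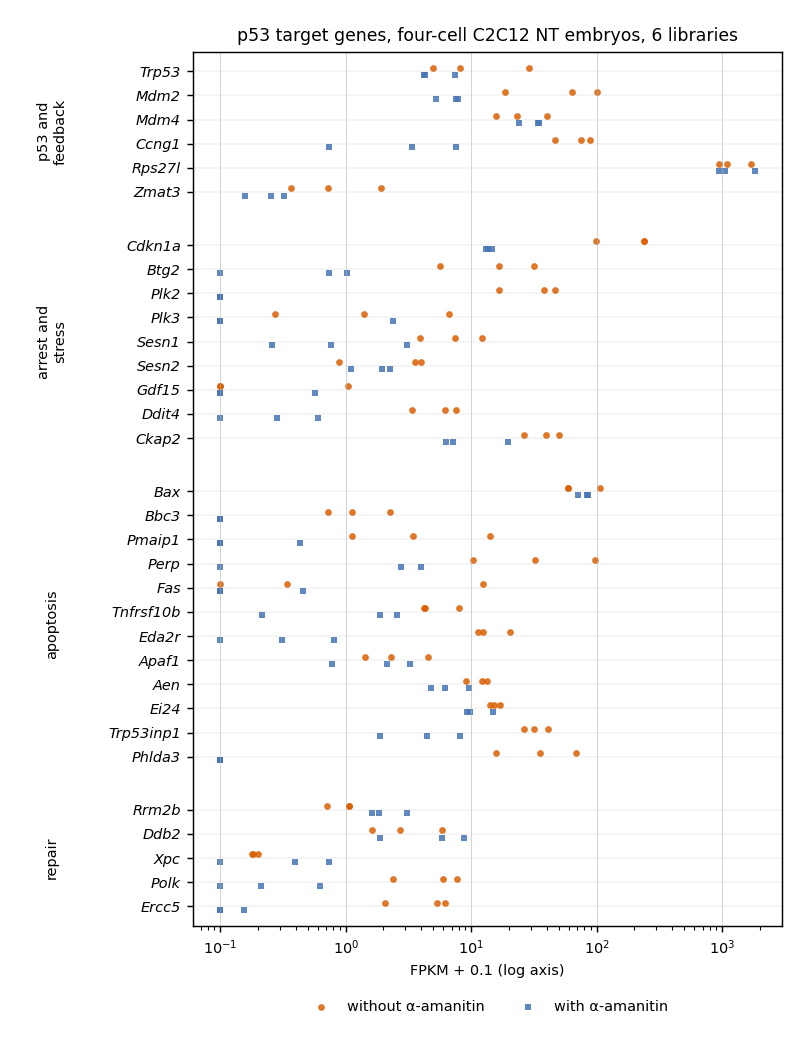
FPKM (log axis, 0.1 added) of the 32 members in the 6 four-cell libraries, 3 without and 3 with α-amanitin, 1 point per library, grouped by role. Plk2 and Phlda3 sit at 0 in all 3 treated libraries, and Bax, Rps27l and Mdm4 overlap between the groups.

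To ask the same of two-cell embryos, libraries without and with α-amanitin were compared there. With early and late embryos together, 13 of the 22 members tested were higher without α-amanitin and 2 were lower, where 44.0% and 8.6% of the 13531 genes tested were called. The median log2 difference was 1.15 over the members and 0.83 over all genes. Arrest genes gave 7 of 8 tested, apoptosis genes 5 of 7, and feedback 1 higher and 1 lower of 5, while of the 2 repair genes tested none was higher and 1 was lower. The groups did not overlap, with the libraries without α-amanitin higher, for 4 members, against 18.8% of all genes tested. The number of calls depended on the scale: with median-of-ratios scaling 6 members were higher and 3 lower (25.3% and 15.8% of all genes), and with spike-in scaling 18 and 0 (77.7% and 1.34%). The median over the members moved from 1.15 to 0.53 and to 2.06, and that over all genes from 0.83 to 0.30 and to 1.78.

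The 2 column sets were then compared separately. Between NT and Am 2 members were higher and 2 lower of 25 tested, where 12.7% and 4.18% of 14285 genes were called. These were Ddit4 and Plk2 (higher) and Mdm4 and Pmaip1 (lower), and with 1 library left out Plk2 was called only without NT2 and Mdm4 lost its call without Am1 or Am2. Between R and RAm 17 members were higher and 3 lower of 21 tested, where 60.5% and 16.4% of 14387 genes were called. These splits moved with the scale too. With median-of-ratios scaling 2 and 2 were called between NT and Am (7.43% and 6.83% of all genes) and 9 and 3 between R and RAm (42.6% and 24.9%). With spike-in scaling they were 9 and 0 between NT and Am (31.5% and 0.77%) and 19 and 0 between R and RAm (80.5% and 5.45%). Of the 15 members called in the pooled fit 3 were called between NT and Am (Ddit4, Mdm4 and Plk2) and 15 between R and RAm. 6 of the 17 (Btg2, Plk2, Plk3, Sesn2, Ddit4, Tnfrsf10b) were under 1 FPKM in every RAm library, so they passed the filter through R, where they were high. Of the 20, Plk2 lost its call without RAm2 or RAm3, and Ddb2 without R2, R3, RAm2 or RAm3. The difference between the sets was itself tested as an interaction: the signed log2 difference, without minus with α-amanitin, was higher in the R set for 8 of 27 members tested and lower for 1, against 36.0% and 8.46% of 17196 genes. The 1 was Rrm2b, which lay further under 0 in the R set (−2.31) than in the NT set (−0.80). Its median was 0.75 over the members and 0.76 over all genes. With median-of-ratios scaling the signed difference was higher in the R set for 3 members and lower for 3 (19.7% and 16.7% of all genes), and with spike-in scaling for 12 and 0 (50.5% and 2.71%). Median-of-ratios scaling cost 8 of the R against RAm calls (Trp53, Mdm2, Rps27l, Plk2, Sesn1, Bax, Aen, Ddb2) and 5 of the interaction calls (Rps27l, Ckap2, Bax, Apaf1, Ei24). Spike-in scaling cost the calls of Mdm4 and Rrm2b between R and RAm, that of Rrm2b in the interaction, and those of Mdm4 and Pmaip1 between NT and Am. The labels do not say which set was early, so this difference and the time of transfer cannot be told apart from any other difference between the sets.

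Ddit4 and Plk2 were called in the pooled comparison under each of its 22 alternatives. Ddit4 had 11.9, 8.57 and 5.03 FPKM in NT1 to NT3 and 2.98, 3.15 and 3.23 FPKM in R1 to R3, and with α-amanitin 0.967, 1.13 and 0.217 FPKM in Am1 to Am3 and 0, 0.0807 and 0.0815 FPKM in RAm1 to RAm3. Each untreated library stood above each treated one (log2 difference 2.18, SE 0.35, adjusted p = 0.000425). Plk2 had 18.9, 2.42 and 12.8 FPKM in NT1 to NT3 and 5.15, 1.87 and 1.05 FPKM in R1 to R3, and with α-amanitin 1.51, 0.143 and 0 FPKM in Am1 to Am3 and 0.754, 0 and 0 FPKM in RAm1 to RAm3. Its groups overlapped by 1 library on each side, Am1 and R3 (2.12, SE 0.51, adjusted p = 0.00489).

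Cdkn1a had 142, 21.2 and 25.5 FPKM in NT1 to NT3 and 16.8, 14.8 and 19.5 FPKM in R1 to R3, and with α-amanitin 15.3, 9.94 and 11.4 FPKM in Am1 to Am3 and 2.34, 3.49 and 0.745 FPKM in RAm1 to RAm3. NT1 stood apart from the other untreated libraries, and RAm lay under all others. The log2 difference was 2.17 (SE 0.63, adjusted p = 0.012) in the pooled fit, 2.60 (SE 0.37, adjusted p = 0.000464) between R and RAm and 1.75 (adjusted p = 0.101) between NT and Am. Over the 12 alternatives between NT and Am the value for Cdkn1a ran from 0.90 to 2.54, with a call in 1. Ckap2 had 17.9, 17.1 and 19.5 FPKM in NT1 to NT3 and 30.7, 25.5 and 35.7 FPKM in R1 to R3, against 11.7, 11.1 and 9.04 FPKM in Am1 to Am3 and 2.73, 5.66 and 5.74 FPKM in RAm1 to RAm3, with no overlap (1.62, SE 0.37, adjusted p = 0.0038). Btg2 was called between R and RAm (1.74) and not in the pooled fit, at 8.58, 5.14 and 0.481 FPKM in NT1 to NT3, 2.71, 4.40 and 2.10 FPKM in R1 to R3, 2.94, 1.80 and 3.08 FPKM in Am1 to Am3 and 0.656, 0 and 0 FPKM in RAm1 to RAm3. Plk3, Sesn1 and Sesn2 were called in the pooled fit (1.24, 0.97 and 1.33). With median-of-ratios scaling all 3 calls were lost, at 0.97 for Plk3 (adjusted p = 0.0564), 0.44 for Sesn1 (adjusted p = 0.232) and 0.93 for Sesn2 (adjusted p = 0.12). None of the 3 was called between NT and Am. Sesn2 had 9.10 ± 1.62 FPKM (SD, n = 3) in R and 0.346 ± 0.437 FPKM in RAm, but 3.35 ± 2.04 FPKM in NT and 3.83 ± 0.524 FPKM in Am. The effect of α-amanitin on Sesn2 was larger in the R set than in the NT set by 3.23 on the log2 scale (SE 0.54, adjusted p = 0.00054), and that on Plk3 by 2.38 (SE 0.53, adjusted p = 0.00343).

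In the feedback loop Mdm4 was lower and Trp53 higher without α-amanitin. Mdm4 had 68.6, 87.8 and 112 FPKM in NT1 to NT3 and 150, 125 and 121 FPKM in R1 to R3, and with α-amanitin 227, 279.7 and 189 FPKM in Am1 to Am3 and 449.9, 380.0 and 574 FPKM in RAm1 to RAm3. Each treated library was above each untreated one (log2 difference −1.59, SE 0.38, adjusted p = 0.00498). With spike-in scaling this call was lost (adjusted p = 0.739). Trp53 was higher without α-amanitin, at 7.18, 3.37 and 5.95 FPKM in NT1 to NT3 and 4.87, 4.02 and 4.19 FPKM in R1 to R3 against 2.94, 2.29 and 2.78 FPKM in Am1 to Am3 and 1.13, 0.420 and 1.11 FPKM in RAm1 to RAm3, with no overlap (1.15, SE 0.31, adjusted p = 0.00861). The call was lost between NT and Am alone (0.78, adjusted p = 0.136) and with median-of-ratios scaling (0.60, adjusted p = 0.0636). With spike-in scaling Trp53 was called in the pooled fit (2.10, limma adjusted p = 0.000118) and between NT and Am (1.43, limma adjusted p = 0.0352). The latter was the 1 of 12 alternatives between NT and Am that called it. Mdm2 had 70.4, 31.4 and 18.8 FPKM in NT1 to NT3 and 26.7, 24.1 and 21.1 FPKM in R1 to R3 against 21.3, 28.7 and 25.1 FPKM in Am1 to Am3 and 13.2, 7.51 and 16.7 FPKM in RAm1 to RAm3. Mdm2 overlapped between the groups and was not called (0.71, SE 0.41, adjusted p = 0.155), though between R and RAm it was (0.95, SE 0.31, adjusted p = 0.0234), a call lost without any 1 of the 3 R libraries and with median-of-ratios scaling (−0.19). With spike-in scaling Mdm2 was called in the pooled fit (2.04, limma adjusted p = 0.00223), where 77.7% of all genes were called higher. Between R and RAm it was then at 2.79 (limma adjusted p = 1.74e-05). Of the 22 pooled alternatives 2 called it. Ccng1 ranged over 25.2, 5.29 and 16.9 FPKM in NT1 to NT3, 5.92, 2.65 and 2.23 FPKM in R1 to R3, 1.75, 2.00 and 6.02 FPKM in Am1 to Am3 and 7.78, 0.548 and 3.42 FPKM in RAm1 to RAm3, with no call. Rps27l was higher in R than in RAm (2.21, SE 0.43, adjusted p = 0.00206), but not called there with median-of-ratios scaling (1.01, adjusted p = 0.0618).

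Among the apoptosis genes, Ei24 had 12.1, 17.6 and 7.92 FPKM in NT1 to NT3 and 13.8, 15.2 and 14.2 FPKM in R1 to R3, and with α-amanitin 10.2, 7.91 and 5.42 FPKM in Am1 to Am3 and 1.196, 2.14 and 2.26 FPKM in RAm1 to RAm3. The log2 difference was 1.52 (SE 0.42, adjusted p = 0.00946), with the R set wider apart than the NT set by 1.86 (adjusted p = 0.00476), which fell to 0.97 with median-of-ratios scaling (adjusted p = 0.111). Between NT and Am alone Ei24 was not called (0.59, adjusted p = 0.288). Tnfrsf10b (1.26), Aen (1.33), Bax (1.14) and Apaf1 (0.90) were called in the pooled fit as well. None of these 4 was called between NT and Am alone, at adjusted p = 0.105 for Tnfrsf10b, 0.153 for Aen, 0.574 for Bax and 0.961 for Apaf1. With median-of-ratios scaling Aen (0.72, adjusted p = 0.0798), Bax (0.38, adjusted p = 0.292) and Apaf1 (0.39, adjusted p = 0.292) lost the pooled call. Tnfrsf10b did not overlap between groups, at 2.32 ± 0.648 FPKM without and 0.395 ± 0.367 FPKM with α-amanitin (SD, n = 6). Trp53inp1 was higher with α-amanitin in the R set (−1.04, SE 0.27, adjusted p = 0.00908), at 13.5, 9.83 and 8.20 FPKM in R1 to R3 and 17.5, 23.5 and 26.8 FPKM in RAm1 to RAm3, and was 19.0, 11.7 and 8.72 FPKM in NT1 to NT3 and 15.2, 24.8 and 9.97 FPKM in Am1 to Am3. With spike-in scaling its difference in the R set turned to 0.81 (adjusted p = 0.0232). Pmaip1 was lower in NT than in Am (−1.11, SE 0.29, adjusted p = 0.0376), at 0.798 ± 0.271 and 2.88 ± 0.616 FPKM (SD, n = 3), and had 1.51 ± 0.721 FPKM in R and 0.0129 ± 0.0224 FPKM in RAm. Leaving out a library cost this Pmaip1 call in 5 of 6 cases, namely Am1, Am2, Am3, NT1 and NT2. Phlda3, Perp and Eda2r were too low to be tested in the pooled fit. Phlda3 had 13.1, 2.20 and 0.761 FPKM in NT1 to NT3, 1.55, 0 and 1.19 FPKM in R1 to R3, 0, 0 and 3.69 FPKM in Am1 to Am3 and 0 in each RAm library. Eda2r had 8.62, 0.178 and 1.01 FPKM in NT1 to NT3, 0.717, 0.521 and 0.681 FPKM in R1 to R3, 0.540, 0.364 and 0.402 FPKM in Am1 to Am3 and 0 in each RAm library. Perp reached 0.459, 0 and 2.17 FPKM in NT1 to NT3, 0.515, 0 and 0.633 FPKM in R1 to R3, 0 in each Am library and 0.0542, 0 and 1.47 FPKM in RAm1 to RAm3. These 3 genes, each above 10 FPKM in S15, S17 and S7 of the four-cell stage, were detected in some of the two-cell libraries and listed at 0 in others. Bbc3 and Fas were also too low to be tested in the pooled fit.

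Of the repair genes, Rrm2b had 4.75, 7.61 and 5.57 FPKM in NT1 to NT3 and 5.53, 6.12 and 8.17 FPKM in R1 to R3, and with α-amanitin 16.7, 11.6 and 6.66 FPKM in Am1 to Am3 and 32.6, 37.9 and 39.1 FPKM in RAm1 to RAm3. Treated libraries were higher, and 1 of the Am libraries overlapped with the untreated ones (log2 difference −1.56, SE 0.42, adjusted p = 0.00912), a call lost with spike-in scaling (adjusted p = 0.608). The difference was wider in the R set by 1.51 (−1.51, adjusted p = 0.0133), but by spike-in scaling the interaction was −0.35 (adjusted p = 0.608). Ddb2 was higher in R than in RAm (1.16), a call lost with median-of-ratios scaling (0.33, adjusted p = 0.493), with no filter (adjusted p = 0.0696) and without any of 4 libraries named above. Polk had 1.66, 0.0514 and 2.92 FPKM in NT1 to NT3, 1.21, 0 and 0.408 FPKM in R1 to R3, 0.229, 0.0386 and 0.122 FPKM in Am1 to Am3 and 0, 0.306 and 1.25 FPKM in RAm1 to RAm3. Ercc5 had 3.51, 1.27 and 0.292 FPKM in NT1 to NT3, 1.03, 0.960 and 1.81 FPKM in R1 to R3, 0.832, 0.548 and 0.432 FPKM in Am1 to Am3 and 0.975, 0 and 0.268 FPKM in RAm1 to RAm3. Polk, Ercc5 and Xpc were too low to be tested in the pooled fit, and the pairs of groups overlapped for Polk and Ercc5.

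Single libraries carried part of the spread. NT1 was the highest of the 6 untreated libraries for 13 of the 32 members and the highest of the 3 NT libraries for 19. Leaving out single libraries cost at most 5 of the pooled calls at a time, all among Plk3, Sesn1, Sesn2, Bax and Apaf1, and all 5 were lost without R1, R2, RAm1 or RAm3. Between R and NT without α-amanitin 0 of the 27 members tested were called at an adjusted p under 0.05 in limma, against 2.45% of 17196 genes, and 9 stood at an unadjusted p under 0.05, against 19.3%.

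**Figure D2:**
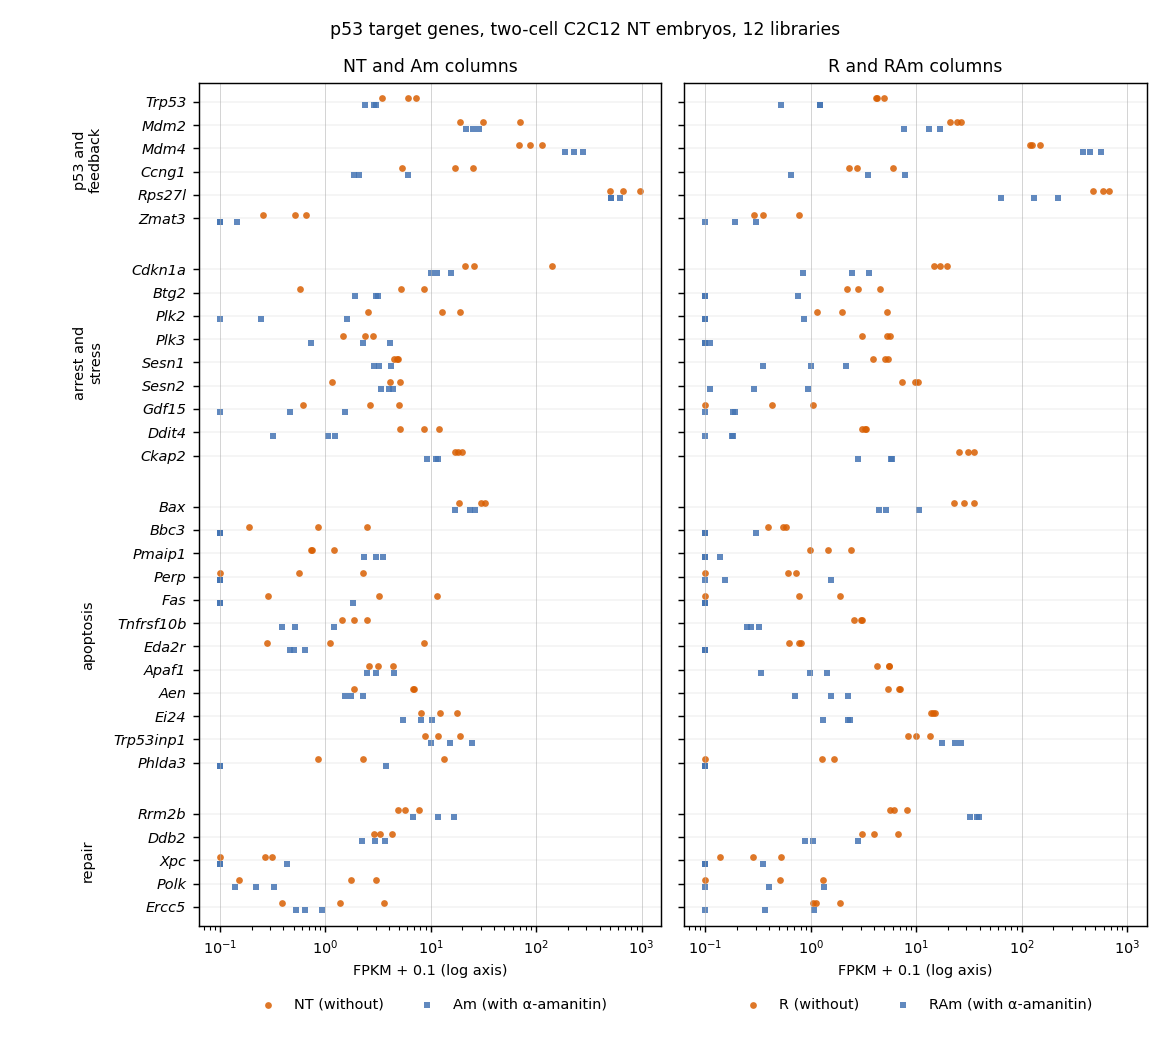
FPKM (log axis, 0.1 added) of the members in the 12 two-cell libraries, with NT and R without and Am and RAm with α-amanitin. Mdm4 and Rrm2b stand highest in RAm, and Ddit4 and Tnfrsf10b do not overlap between treated and untreated libraries.

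**Figure D3:**
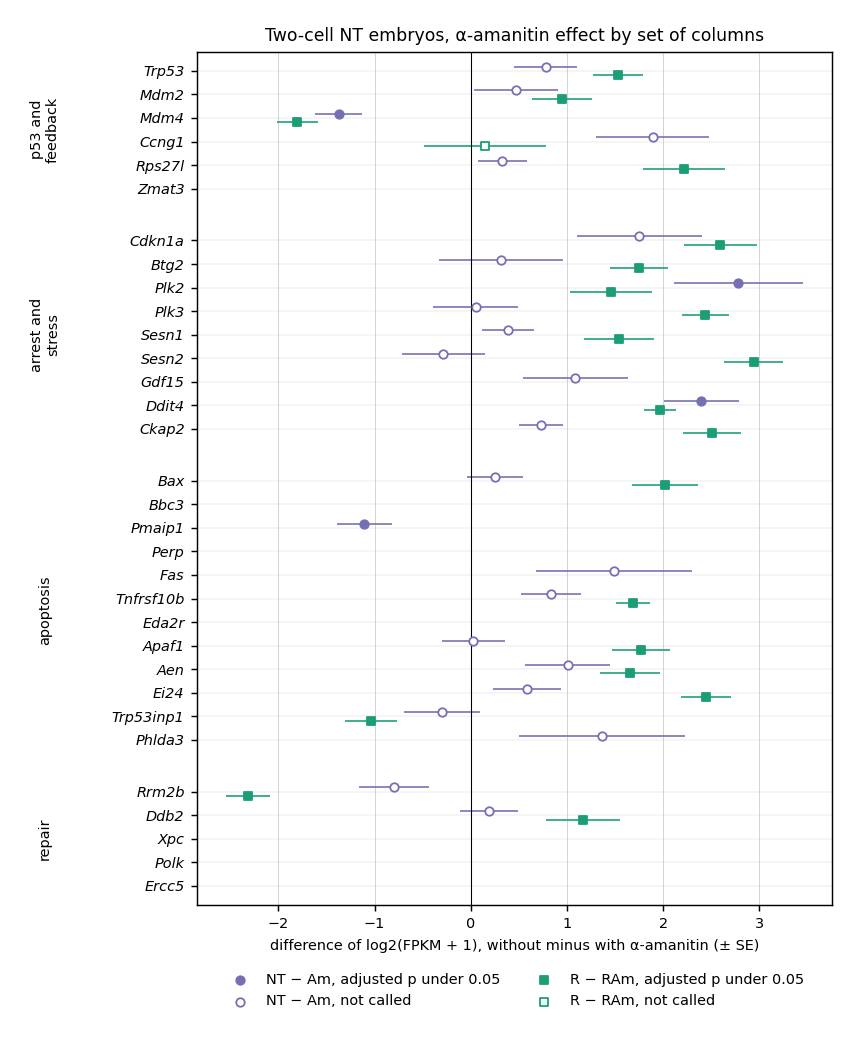
Log2 differences of the members (without minus with α-amanitin, bars are standard errors) in the NT and Am set and in the R and RAm set, filled where the adjusted p was under 0.05. 4 members are filled in the first set and 20 in the second.

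In the DNA replication experiment, DR and D were compared to ask whether the time of transfer relative to replication changed the transcripts. In limma, 0 of the 30 members tested were called in either direction, as were 0.0% of all 14570 genes tested. At an unadjusted p under 0.05 stood 2 members, Aen and Sesn2, against 6.16% of all genes. The groups did not overlap for 3 members, Aen, Ddb2 and Bax, with DR higher (8.21% of all genes), Bax by the difference between 43.27 and 43.26 FPKM, and for 0 members with D higher (3.99%). The median log2 difference was 0.25 over the members and 0.02 over all genes.

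Cdkn1a had 166, 171 and 183 FPKM in DR1 to DR3 and 197, 95.6 and 289 FPKM in D1, D4 and D5, with DR inside the range of D (log2 difference −0.02, SE 0.39). Mdm2 had 19.0, 39.0 and 17.3 FPKM in DR1 to DR3 and 39.4, 21.9 and 65.5 FPKM in D1, D4 and D5 (−0.69, SE 0.47). Trp53 had 12.03, 31.3 and 11.4 FPKM in DR1 to DR3 and 7.96, 12.04 and 12.9 FPKM in D1, D4 and D5 (0.56, SE 0.42). All 3 overlapped between groups. Aen had 26.9, 24.6 and 28.2 FPKM in DR1 to DR3 and 12.2, 16.5 and 8.86 FPKM in D1, D4 and D5 (1.07, SE 0.28, limma adjusted p = 0.788). Sesn2 had 17.9, 14.3 and 7.07 FPKM in DR1 to DR3 and 7.08, 3.80 and 5.20 FPKM in D1, D4 and D5 (1.09, SE 0.39, limma adjusted p = 0.788). With spike-in scaling the differences were −0.63 (SE 2.23) and −0.58 (SE 2.09), within their errors of 0, with the median over all genes at −1.41 and over the members at −1.24. The share of spike-in reads ran from 0.0181% to 0.776% within D alone.

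Most other members spread as widely within D as between the groups. Ccng1 had 34.7, 57.9 and 45.8 FPKM in DR1 to DR3 and 48.7, 21.3 and 59.9 FPKM in D1, D4 and D5. Btg2 had 10.2, 18.5 and 5.46 FPKM in DR1 to DR3 and 28.8, 4.52 and 36.4 FPKM in D1, D4 and D5. Plk2 had 14.6, 18.5 and 12.3 FPKM in DR1 to DR3 and 24.3, 8.57 and 30.1 FPKM in D1, D4 and D5. In these 3 genes D4 was the lowest of the D libraries and D5 the highest. D4 was the lowest D library for 18 of the 32 members and D5 the highest for 23. Phlda3 had 31.1, 32.6 and 23.2 FPKM in DR1 to DR3 and 20.2, 12.4 and 26.4 FPKM in D1, D4 and D5. Eda2r had 10.8, 12.7 and 13.0 FPKM in DR1 to DR3 and 12.5, 13.9 and 35.6 FPKM in D1, D4 and D5. Perp had 11.8, 29.0 and 14.2 FPKM in DR1 to DR3 and 15.6, 5.37 and 11.2 FPKM in D1, D4 and D5. All of these apoptosis genes overlapped between the groups. Trp53inp1 (23.9, 65.96 and 46.7 FPKM against 24.9, 27.1 and 46.2), Ei24 (32.8, 17.4 and 13.8 against 20.5, 15.04 and 10.02) and Ddit4 (11.9, 5.23 and 7.88 against 7.99, 2.67 and 8.01) overlapped too, as did Ckap2 (27.0, 31.5 and 24.4 against 22.6, 38.5 and 26.6). Of the feedback and repair genes, Mdm4 had 20.0, 26.5 and 35.5 FPKM in DR1 to DR3 and 14.4, 19.5 and 21.2 FPKM in D1, D4 and D5, and Rrm2b had 1.78, 1.38 and 2.52 against 1.40, 2.62 and 2.54 FPKM. Polk had 3.62, 10.6 and 3.39 FPKM in DR1 to DR3 and 4.38, 5.65 and 5.501 FPKM in D1, D4 and D5, and Ercc5 0.588, 5.13 and 1.51 against 3.40, 3.00 and 7.26 FPKM. None of these 4 separated the groups. Fas and Xpc were too low to be tested.

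**Figure D4:**
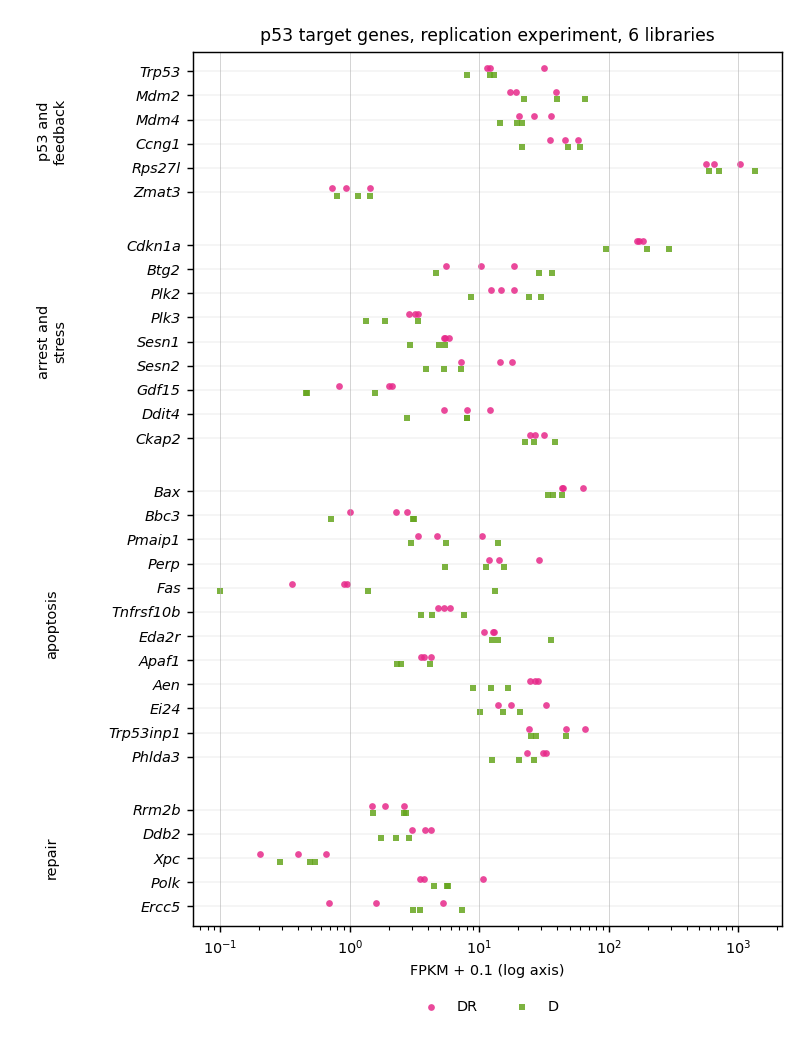
FPKM (log axis, 0.1 added) of the members in the 3 DR and 3 D libraries, 1 point per library. Only Aen, Ddb2 and Bax have all DR points above all D points.

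Untreated levels were set side by side across the tables with no test, since each table was made separately and the stage cannot be told apart from the table. For 5 members (Aen, Eda2r, Perp, Tnfrsf10b, Trp53inp1) the lowest of the 9 untreated four-cell libraries, D and DR included, was above the highest untreated two-cell library, and for 2 (Mdm4, Rrm2b) the highest was under the lowest. Of 14711 genes with at least 1 FPKM in 3 or more of the libraries S15, S17, S7, NT1 to NT3 and R1 to R3, 7.0% and 5.95% stood apart in these directions. For Bax, Ccng1 and Phlda3 the libraries S15, S17 and S7 were above all untreated two-cell libraries, but the lowest D library (34.1, 21.3 and 12.4 FPKM) was under the highest two-cell library (35.0, 25.2 and 13.1 FPKM). The median of Phlda3 was 1.37 FPKM (range 0 to 13.1) in 6 two-cell libraries, 35.5 FPKM (15.8 to 67.9) in 3 four-cell libraries and 24.8 FPKM (12.4 to 32.6) in D and DR. The median of Eda2r was 0.699 FPKM at the two-cell stage, 12.4 FPKM at the four-cell stage and 12.8 FPKM in D and DR. Mdm4 and Rrm2b went the other way, with medians of 117 and 5.85 FPKM at the two-cell stage, 22.97 and 0.957 FPKM at the four-cell stage and 20.6 and 2.15 FPKM in D and DR. The other 25 overlapped, among them Cdkn1a at 20.3, 239 and 177 FPKM, and Mdm2 at 25.4, 63.7 and 30.5 FPKM. The gene length behind the FPKM differed between the two-cell and the other tables for 3 members, by 1.6 times for Cdkn1a, 1.14 times for Fas and 1.03 times for Pmaip1.

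**Figure D5:**
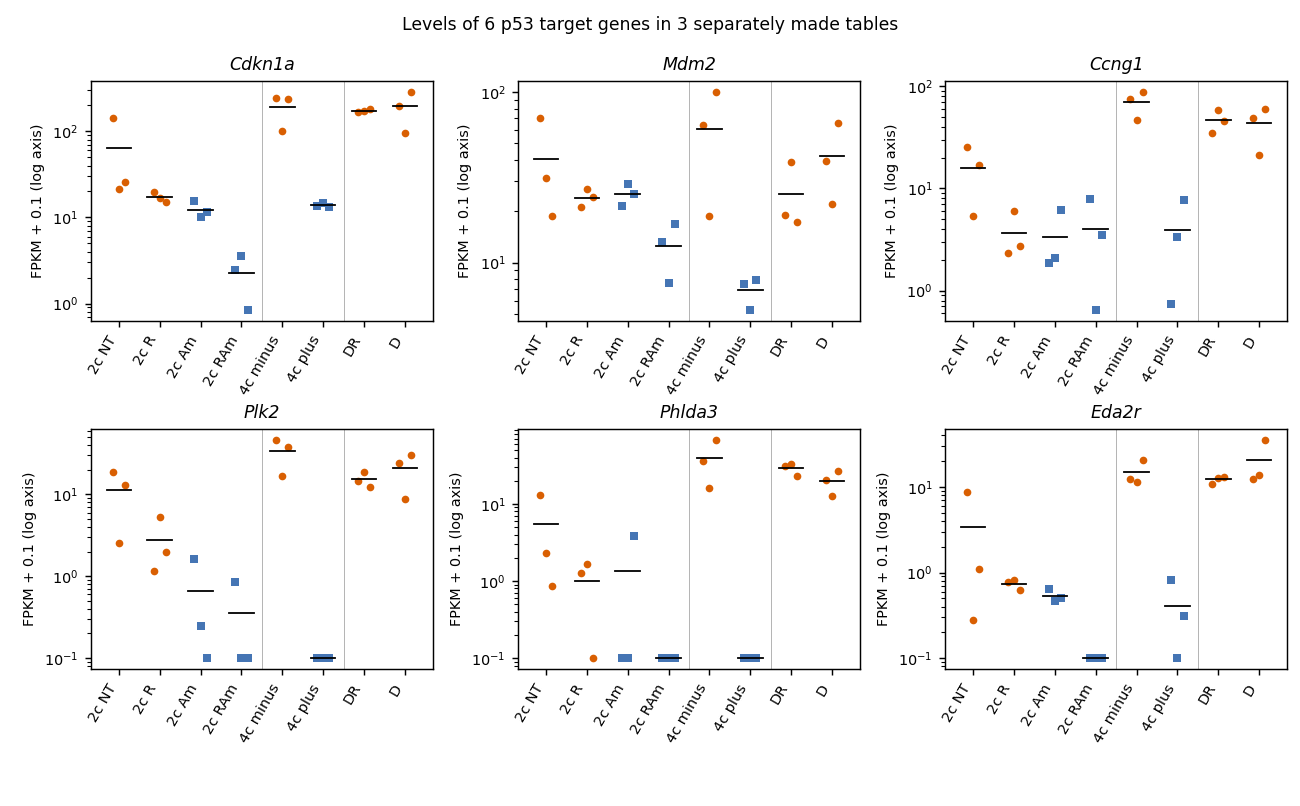
FPKM (log axis, 0.1 added) of 6 members in the two-cell, four-cell and replication libraries, with black lines at group means. Cdkn1a, Plk2, Phlda3 and Eda2r stand higher in every four-cell library without α-amanitin, DR and D included, than in R, while NT reaches into the range of D for Cdkn1a, Plk2 and Phlda3.

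Of the 13 members called in four-cell embryos, 8 were tested at the two-cell stage and 4 of these were higher there (Cdkn1a, Ckap2, Ddit4, Plk2), beside 44.0% of all genes. They make 30.8% of either list of 13. Of the 8 tested between R and RAm 6 were higher (beside 60.5% of all genes), of the 9 tested between NT and Am 2 (beside 12.7%), and of the 13 tested between DR and D 0.

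The other genes of the p53 pathway, kinases, cofactors and regulators of p53 stability, were counted over a list of 31 symbols, 30 of them in the tables. In four-cell embryos 0 of the 19 tested were called in limma, against 11.1% of all genes higher and 1.13% lower, and 3 stood at an unadjusted p under 0.05, against 28.9% of all genes. In two-cell embryos 13 of the 22 tested were higher without α-amanitin and 2 lower, beside the 44.0% and 8.6% of all genes given above. Kdm1a, a histone demethylase, and Rpl5, a ribosomal protein that can hold Mdm2, were higher by 2.10 and 2.05 on the log2 scale. The deacetylase Sirt1, the p53 cofactor Ppp1r13b and the deubiquitinase Usp10 were higher by 1.86, 1.80 and 1.80, and the checkpoint kinase Chek1 was lower (−1.84). Between NT and Am 3 of the 22 tested were higher and 1 lower (12.7% and 4.18% of all genes), and between R and RAm 17 and 3 of 22 (60.5% and 16.4%). Between DR and D 0 of the 22 tested were called in limma, against 0.0% of all 14570 genes, and 2 stood at an unadjusted p under 0.05, against 6.16%.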

How the data were processed

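RNA-seq tables of pooled NT embryos were used as the authors deposited them. The kit does not mark strand, and per the labels and the submitters' processing notes reads were trimmed with Trimmomatic, Trim Galore and cutadapt, mapped with STAR to mm10 and counted with featureCounts (versions not given in the sources used here). The values are FPKM that the authors scaled to gene length and to the total of counted reads. The study normalized to spike-ins. Here the deposited FPKM were the scale, since the four-cell table lists 0 spike-ins (92 are listed in each other table), and spike-in scaling was an alternative. 4 columns of per-library values whose names match no sample were not used.

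Genes with at least 1 FPKM in at least as many libraries as the smaller group entered the test, limma 3.58.1 (R 4.3.3). It was run on log2(FPKM + 1) with eBayes trend = TRUE, and p-values were adjusted over all genes tested by the method of Benjamini and Hochberg. A call was an adjusted p under 0.05. Fold changes are on the log2(FPKM + 1) scale, which understates those of low genes. With 3 libraries against 3 the smallest exact permutation p is 0.1, so no exact test was used. The code was tested on simulated data. Alternatives were a pseudocount of 0.1 FPKM, no filter, median-of-ratios and spike-in scaling, limma-voom on recovered reads (four-cell), the study's 4-fold rule, the number in the two-cell column names as a replicate block and leaving out each library. The fits within the column sets, their interaction, the set as a block and spike-ins left out of the total were added after seeing the data. Members and lists were chosen with earlier results of these data known. Values in every library are given for Trp53, Mdm2 and Cdkn1a and, in all tables, for the 16 members with the largest differences among those called in the four-cell, two-cell (pooled) or DR against D comparison. Other members are given by range, mean or count. Aen and Sesn2 between DR and D were chosen after their values were seen.

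Without strand, reads of overlapping genes cannot be told apart. In GENCODE vM21 exons of another gene cover 23.8% of Ddb2 (Acp2, opposite strand), 12.2% of Bax, 8.04% of Rrm2b, 7.68% of Cdkn1a, 6.66% of Ei24 and 3.32% of Plk3.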

Additional observations from a re-analysis of the deposited data

Results flagged for a closer look

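In the two-cell libraries a group of 6 was examined for 1 library far from the other 5, by its gap to the nearest other library as a share of the whole range of the group, on the log2(FPKM + 1) scale. This was met in 10 of 64 groups of 6 libraries. For normally distributed values chance flags about 1 in 20 groups, but these groups join 2 column sets and hold values at or near 0, and the same limit was met in 27.2% of 69006 groups over all genes with any value above 0. Without α-amanitin NT1 was high for Cdkn1a (share 0.765) and Eda2r (0.746), and NT3 was low for Aen (0.794). With α-amanitin Am1 was high for Gdf15 (0.649) and Tnfrsf10b (0.652), Am3 for Fas (1.0) and Phlda3 (1.0), RAm1 for Bbc3 (1.0), and RAm3 for Perp (0.942) and Polk (0.671). Where the share is 1.0 the other 5 libraries were at 0.

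The effect of α-amanitin differed between the R and the NT columns for 9 of the 27 members tested by the interaction in limma, as it did for 44.5% of all 17196 genes tested. The effect in R minus that in NT was 3.23 on the log2 scale for Sesn2, 2.38 for Plk3, 2.38 for Pmaip1, 1.89 for Rps27l, 1.86 for Ei24, 1.78 for Ckap2, 1.77 for Bax, 1.74 for Apaf1 and −1.51 for Rrm2b. Sesn2, Plk3 and Pmaip1 kept this call in all 18 alternatives run.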

How the results depend on the processing

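The number of called members, higher and lower together, is given here beside the share of all genes called in either direction under the same setting. In four-cell embryos (13, 12.2%) it was 7 with no filter (1.27%) and 5 to 14 with a library left out (2.73% to 9.22%). In two-cell embryos (15, 52.6%) it was 4 within the NT set (16.9%), 9 with median-of-ratios scaling (41.1%), 3 with the 4-fold rule (15.8%) and 10 to 18 with a library left out (39.9% to 57.8%). Between NT and Am (4, 16.9%) it was 1 with no filter (1.65%), 9 with spike-in scaling (32.3%), 2 with the 4-fold rule (3.78%) and 1 to 5 with a library left out (3.02% to 21.4%; 1 without Am1 or Am2). Between R and RAm (20, 76.8%) it was 8 with the 4-fold rule (39.2%) and 12 with median-of-ratios scaling (67.5%). By the interaction (9, 44.5%) it was 3 with the 4-fold rule (23.7%). Between DR and D it was 0 throughout. The other counts stayed within 1.5 times. Signs turned as follows, on the log2 scale. With median-of-ratios scaling Mdm2 was −0.076 (pooled two-cell), −0.19 (R set) and −0.62 (interaction), and Cdkn1a −0.012 (interaction). Sesn2 was −0.29 within the NT set, and Mdm2 there −0.031 to 0.90 with a library left out, lowest without NT1. With spike-in scaling Mdm4 was 0.17 and Trp53inp1 0.81 in the R set, and between DR and D Trp53 was −1.03, Sesn2 −0.58 and Aen −0.63. Cdkn1a between DR and D was −0.46 to 0.33 with a library left out, and above 0 without DR1, D1 or D5. The cause was not tested. Of the other values 908 kept direction and side of the threshold, 178 lost and 6 gained a call.

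The two-cell columns share the numbers 1 to 3 within each set. Same-numbered libraries deviated together only weakly, with correlations that were all positive (0.018 to 0.0724 over 13531 genes). Those of unlike numbers ran from −0.112 to 0.0418, and not every library correlated best with its own number. With the number as a replicate block 12 members were called in two-cell embryos (10 higher, 2 lower, with Sesn2, Bax and Apaf1 not called, against 40.2% and 7.93% of all genes), 3 between NT and Am (2 and 1, Pmaip1 not called, against 10.8% and 3.19%), 20 between R and RAm (17 and 3, against 60.4% and 16.3%) and 9 by the interaction (8 and 1, against 34.3% and 7.97%). For the four-cell table no paired analysis was possible because its column names carry none of the replicate numbers of the labels, and for the replication table because the columns of D and DR share 1 number. Depth limits low genes, most of all at the four-cell stage, and pools rather than embryos were the replicates.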
